A study of Homo sapiens with 14 samples.

Results

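DNA replication and nucleotide supply genes were examined as a set of 52 members: the genes of the origin recognition complex, the licensing factors, the replicative helicase and its partners, the polymerases and primase, the sliding clamp and its loader, and a few genes of single-strand binding, Okazaki fragment joining, deoxynucleotide supply, chromatin assembly and fork protection. Members were taken by gene symbol, from a list drawn up with earlier results of these data known, out of the 12202 genes present in either of 2 deposited comparison tables. The siRNA table listed 51 of them (UHRF1 was not listed) and the deletion table listed 52, so 51 could be compared between both.

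The study asked which genes respond when CALCRL, which encodes the calcitonin receptor-like receptor, is lowered in endothelial cells, either directly or through an enhancer at a coronary artery disease locus. All 14 libraries came from teloHAEC, a telomerase-immortalised line of human aortic endothelium bought from ATCC. In the siRNA comparison, 4 libraries from cells reverse transfected with Silencer Select siRNA against CALCRL were set against 4 from cells given scrambled siRNA, all lysed 24 hours after lipid transfection. In the deletion comparison, 3 libraries came from cells electroporated with Cas9 ribonucleoprotein and guides flanking the enhancer, and 3 control libraries came from cells electroporated with Cas9 and a guide against HPRT. RNA was taken 2 days after electroporation. Both CRISPR groups were thus given Cas9 with cutting guides, the control at HPRT. The labels name neither a clone nor a sort, so the edited cells are taken as a pool, and nothing in the labels says that replicates came from separate cultures. Library preparation used a 3' mRNA kit (QuantSeq FWD), which reads the end of polyadenylated transcripts.

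Before a cell copies its DNA, the origin recognition complex, CDC6 and CDT1 load the MCM helicase onto origins as an inactive ring. At the start of S phase, CDC45 and the GINS complex join the MCM ring to make the active helicase, and polymerases alpha, delta and epsilon then copy the strands with the clamp PCNA, while ribonucleotide reductase and thymidylate synthase supply deoxynucleotides. Many of these genes are transcribed together at the G1/S boundary under E2F transcription factors, and endothelial cells of the vessel wall are mostly quiescent in the adult, whereas cultured endothelial lines divide.

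The promoters are shown first, because many of these genes are known as E2F targets. Sequences of 250 bases before to 50 after the start site were available from RefSeq (GRCh38.p14) for 46 of the 52 members, and GINS4, MCM4, MCM5, POLD3, RPA2 and RPA3 were not used here. The E2F words TTTCCCGC, TTTCGCGC, TTTGGCGC and TTTGCCGC were searched on both strands. At least 1 of them was found in 20 of 46 members (43.5%), against 5.61% of 8646 promoters of genes in the tables and 3.33% of all 27305 RefSeq promoters. The CCAAT word was found in 27 members (58.7%), against 37.0% and 35.7% of the same sets. More than 1 E2F word was found in 4 members. Below are the promoters of CDT1, MCM3 and MCM7, which were higher after deletion, of MCM2, which was lower after deletion, and of CDC6, which was lower under siRNA. Capitals mark the E2F words, whichever strand holds them, and each sequence is the strand of its gene.

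CDT1 (chr16:88803539-88803838, plus strand): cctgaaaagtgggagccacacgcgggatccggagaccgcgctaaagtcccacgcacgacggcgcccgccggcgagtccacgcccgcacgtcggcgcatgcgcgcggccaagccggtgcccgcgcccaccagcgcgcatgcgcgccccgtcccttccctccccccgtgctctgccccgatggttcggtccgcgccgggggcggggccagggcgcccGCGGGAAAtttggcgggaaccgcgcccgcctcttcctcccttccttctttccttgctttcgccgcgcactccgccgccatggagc
MCM3 (chr6:52284693-52284992, minus strand): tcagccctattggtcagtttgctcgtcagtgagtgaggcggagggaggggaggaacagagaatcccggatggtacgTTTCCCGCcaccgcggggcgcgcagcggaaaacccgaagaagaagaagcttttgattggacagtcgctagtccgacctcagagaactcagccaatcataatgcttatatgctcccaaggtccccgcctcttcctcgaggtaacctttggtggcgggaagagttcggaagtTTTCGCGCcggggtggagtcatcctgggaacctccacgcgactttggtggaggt
MCM7 (chr7:100101348-100101647, minus strand): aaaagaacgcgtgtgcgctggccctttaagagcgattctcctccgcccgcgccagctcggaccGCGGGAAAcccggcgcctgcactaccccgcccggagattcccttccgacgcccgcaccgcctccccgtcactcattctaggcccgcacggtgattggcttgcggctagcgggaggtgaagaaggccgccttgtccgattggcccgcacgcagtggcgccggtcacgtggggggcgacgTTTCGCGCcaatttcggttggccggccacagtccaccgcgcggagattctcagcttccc
MCM2 (chr3:127598161-127598460, plus strand): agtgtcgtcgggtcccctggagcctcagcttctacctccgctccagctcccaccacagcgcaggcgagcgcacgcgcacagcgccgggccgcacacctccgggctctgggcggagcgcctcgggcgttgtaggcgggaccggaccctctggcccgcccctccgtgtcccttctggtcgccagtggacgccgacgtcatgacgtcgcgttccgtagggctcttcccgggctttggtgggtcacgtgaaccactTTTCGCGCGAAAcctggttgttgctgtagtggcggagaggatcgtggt
CDC6 (chr17:40287629-40287928, plus strand): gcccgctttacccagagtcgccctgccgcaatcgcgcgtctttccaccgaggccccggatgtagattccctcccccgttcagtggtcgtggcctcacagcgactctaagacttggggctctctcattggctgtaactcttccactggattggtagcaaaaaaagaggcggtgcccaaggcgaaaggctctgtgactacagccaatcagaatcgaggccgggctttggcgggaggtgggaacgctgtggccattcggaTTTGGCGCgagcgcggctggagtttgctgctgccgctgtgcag

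Counting the start-site base as 0, the word of CDT1 began at -35 and that of CDC6 at 7. In MCM3 the words began at -174 and -4, and in MCM7 at -187 and -9. The words of MCM2, at 2 and 6, overlap each other on opposite strands, which also holds for the words of MCM6. A match is a run of letters and not a measured binding site.

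Neither table holds a value for a single library, so every error is the standard error (SE) of the authors' fit. Where a group level is given, it was derived from the mean normalised count over all libraries of a comparison and the fold change, and it is comparable only within a gene, since 3' counts of different genes are not scaled to a common measure. A gene is called when its adjusted p-value over the whole table is under 0.05. CALCRL itself was at 34.0% of control under siRNA (log2 fold change -1.56, SE 0.17) and at 36.2% after deletion (-1.47, SE 0.43) in the authors' deposited tables. Over all genes the median SE was 0.17 for siRNA and 0.41 for deletion, and the members' medians were 0.16 and 0.39. Mean counts of the members ran from 27.8 to 1081 for siRNA and from 25.6 to 1428 for deletion. Of the fixed cell type markers, 9 of 10 endothelial genes were listed in both tables (PECAM1 in neither), against 1 of 8 for smooth muscle and fibroblast, 1 of 5 for blood and 2 of 4 for epithelium.

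Under CALCRL siRNA the replication genes were mostly a little lower, and 3 of 51 were called, all lower: MCM7, CDC6 and POLD3. That is 5.88% of the members, against 3.46% of all genes called in either direction, 2.42% called lower and 1.05% called higher. Of the 51, 39 had a log2 fold change below 0 (76.5%, against 49.4% of all genes), and the median was -0.19, or 87.7% of control, against 0.00 for all genes. An unadjusted p under 0.05 was reached by 14 members, all lower (27.5%, against 12.0% of all genes). The changes were small, between -0.53 and 0.20 on the log2 scale, and the 95% interval lay within 1.5-fold of no change for 39 of the 51 and within 2-fold for 50. In RNA from whole cultures, a smaller share of cells in S phase and less RNA of these genes per cell cannot be told apart.

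MCM7, a subunit of the MCM helicase ring, fell from a derived level of 654 normalised counts per library with scrambled siRNA to 508 with CALCRL siRNA. The authors' deposited table gives a log2 fold change of -0.36 (SE 0.10, adjusted p = 0.0070), which is 77.7% of control with a 95% interval of 68.3% to 88.5%. CDC6, the ATPase that helps load the MCM ring at origins, fell from 194 to 137, to 70.9% of control (59.2% to 85.0%). Its log2 fold change in the authors' deposited table was -0.50 (SE 0.13, adjusted p = 0.0097). POLD3, an accessory subunit of polymerase delta, fell from 139 to 95.8, to 69.0% of control (55.7% to 85.6%). The authors' deposited table puts it at -0.53 on the log2 scale (SE 0.16, adjusted p = 0.0266). All 3 intervals ended below 100%, and the lowest of their lower limits was the 55.7% of POLD3.

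**Figure D1:**
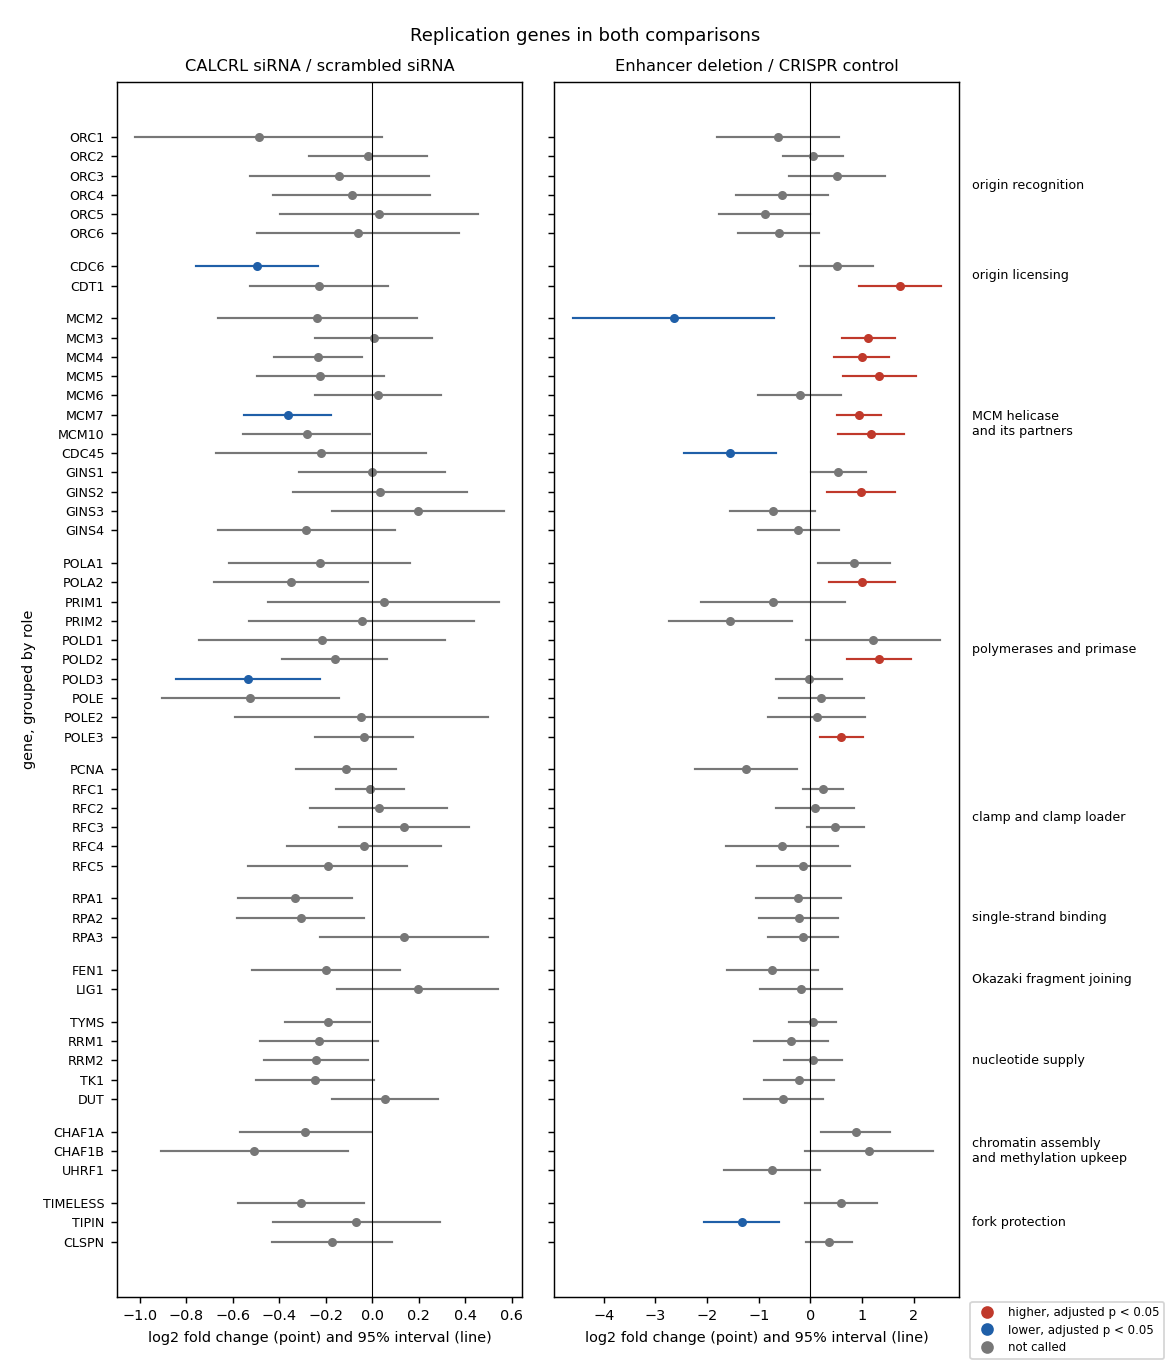
Log2 fold change (point) and 95% interval (line) of each member, grouped by role, for CALCRL siRNA against scrambled siRNA (left) and enhancer deletion against the CRISPR control (right). The horizontal scales differ: the siRNA values lie between -0.53 and 0.20, the deletion values between -2.65 and 1.74. Red marks members called higher, blue those called lower, grey those not called, and UHRF1 has no siRNA value.

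After enhancer deletion the members spread widely in both directions around a median of 0.04 (103% of control), with 27 above 0 and 25 below. Called were 13 of 52 (25.0%, against 15.8% of all genes): 10 higher (19.2%, against 7.4% of all genes) and 3 lower (5.77%, against 8.44%). Those higher were CDT1, MCM5, POLD2, MCM10, MCM3, POLA2, MCM4, GINS2, MCM7 and POLE3, and those lower were MCM2, CDC45 and TIPIN. The standard deviation of the log2 fold changes was 0.88 over the members and 1.04 over all genes. Of the 39 members not called, only 11 had a 95% interval within 2-fold of no change, so a 2-fold change was not excluded for the others. Of the 9 endothelial markers listed, CDH5 (log2 fold change -1.44) and KDR (-1.05) were called lower in the authors' deposited table of the deletion. That is 2 of 9, against 8.44% of all genes, and 4 of the 9 were above 0 and 5 below. Of 2 epithelial markers, 1 was called higher (against 7.4% of all genes), the keratin gene KRT18 (1.13). Under siRNA, 1 of the 9 was called lower (against 2.42% of all genes), EGFL7 (-0.46). The part of these markers in the values of the replication genes was not tested.

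The 6 genes of the origin recognition complex, which marks the sites where the helicase is loaded, gave no call in either comparison. Under siRNA the authors' deposited table has log2 fold changes from -0.49 (ORC1, SE 0.27) to 0.03 (ORC5, SE 0.22). After deletion the range was -0.89 (ORC5, SE 0.45) to 0.51 (ORC3, SE 0.47), with 4 of 6 below 0. ORC2 lay near 0 in both, at -0.02 and 0.04.

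The licensing factors CDC6 and CDT1 recruit the MCM ring to the origin recognition complex, and they differed in where they were called. CDT1 rose after deletion from a derived 79.3 normalised counts per library to 264, or 333% of control (95% interval 193% to 577%). Its log2 fold change of 1.74 (SE 0.40, adjusted p = 0.0009) was the highest of all members in the authors' deposited table of the deletion. Under siRNA, CDT1 stood at -0.23 (SE 0.15) and was not called. CDC6, lower under siRNA, had 143% of control after deletion with an interval of 87.4% to 233% and no call.

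Of the 12 genes of the MCM helicase and its partners, 6 were called higher (against 7.4% of all genes) and 2 lower (against 8.44%) after deletion, and 1 was called lower under siRNA (against 2.42%). Within the ring itself, MCM3, MCM4, MCM5 and MCM7 rose after deletion while MCM2 fell and MCM6 was not called. MCM5 rose from a derived 255 to 640 (251% of control, 154% to 411%), MCM3 from 505 to 1100 (218%), MCM4 from 663 to 1318 (199%) and MCM7 from 720 to 1382 (192%, 143% to 258%). In the authors' deposited table these were log2 fold changes of 1.33 (SE 0.36), 1.12 (SE 0.27), 0.99 (SE 0.27) and 0.94 (SE 0.22), with adjusted p-values of 0.0052, 0.0011, 0.0057 and 0.0009. MCM6 was at -0.21 (SE 0.41) there, with an interval of 49.2% to 152% of control that includes both no change and a reduction as large as 2-fold. The log2 fold changes of the 6 subunits spanned 3.98 after deletion and 0.39 under siRNA, where MCM7 was lowest and MCM6 highest at 0.02.

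MCM2, a ring subunit that also binds histones, went the other way from its partners. Its derived level was 250 normalised counts per library in the CRISPR control and 39.9 after deletion, 15.9% of control with a wide interval of 4.12% to 61.6%. The authors' deposited table gives -2.65 (SE 1.00, adjusted p = 0.0495), which is close to the threshold. That SE was 2.74 times the median SE of the 201 genes nearest in mean count, the only ratio above 2 among the members and one shared by 0.896% of all genes. The next highest ratios of members in the deletion table were 1.86 for PCNA and 1.70 for FEN1. In the annotation, the last 500 bases of MCM2 are also overlapped by an exon of another gene on the opposite strand, so its count is uncertain where strand was not used. For siRNA the authors' deposited table has MCM2 at -0.24 (SE 0.22).

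MCM10, which binds the helicase as replication starts, rose after deletion from 189 to 424 derived counts per library (225% of control, 144% to 351%). CDC45, the helicase cofactor, fell from 154 to 52.7 (34.1% of control, 18.4% to 63.3%). The authors' deposited table gives 1.17 (SE 0.33, adjusted p = 0.0069) for MCM10 and -1.55 (SE 0.45, adjusted p = 0.0099) for CDC45. These genes, whose proteins act at the same helicase, passed the test in opposite directions. In the GINS complex, GINS2 rose from 127 to 251 (log2 fold change 0.98, SE 0.34, adjusted p = 0.0293 in the authors' deposited table). GINS1 (0.54), GINS4 (-0.23) and GINS3 (-0.73) were not called, and GINS3 at 0.20 was the highest of all members under siRNA. With the trend of fold change on GC content removed, GINS2 stood at 0.85 with an adjusted p of 0.0730 and was no longer called. GINS2 shares its transcript end with an exon of GSE1 on the opposite strand.

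**Figure D2:**
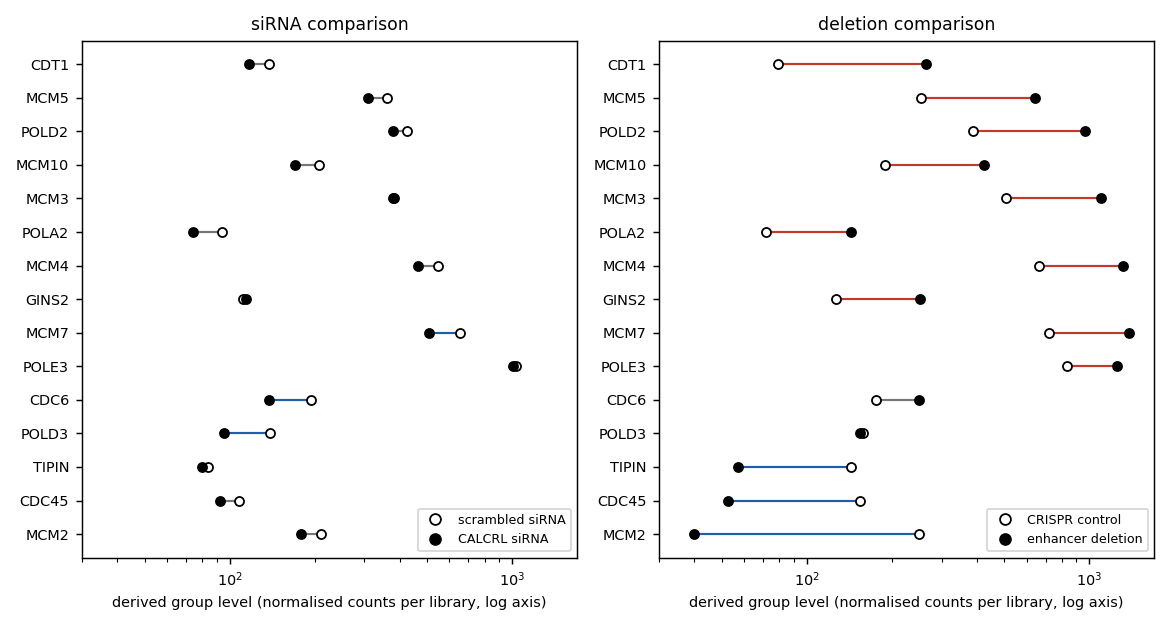
Derived group level in normalised counts per library (log axis) for the members called in either comparison, with open circles for the control group and filled circles for the treated group. Line colour gives the call (red higher, blue lower, grey not called). In the deletion panel, the 10 members called higher lie to the right of their control. MCM2, CDC45 and TIPIN, called lower, lie to the left. CDC6 (right) and POLD3 (slightly left) were not called there. In the siRNA panel the steps of the members called after deletion are shorter.

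Among the 10 polymerase and primase genes, 3 were called higher after deletion (against 7.4% of all genes) and 1, POLD3, lower under siRNA (against 2.42%). POLD2, the second subunit of polymerase delta, rose from a derived 386 to 967 (250% of control, 164% to 383%), POLA2, the regulatory subunit of polymerase alpha, from 71.6 to 144 (200%, 129% to 312%), and POLE3, a small histone-fold subunit of polymerase epsilon, from 831 to 1256 (151%, 114% to 201%). Their log2 fold changes in the authors' deposited table were 1.32 (SE 0.31), 1.00 (SE 0.33) and 0.60 (SE 0.21), with adjusted p-values of 0.0011, 0.0215 and 0.0359. POLA2 dropped to 0.50 with the GC trend removed (adjusted p = 0.327), so its call depended on that step, and POLD2 has a named pseudogene copy that could share reads.

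The primase genes PRIM1 and PRIM2, whose proteins lay down RNA primers together with polymerase alpha, were at -0.72 and -1.55 after deletion without a call. PRIM2 was the lowest of this role (SE 0.61, adjusted p = 0.0628 in the authors' deposited table), and POLA1, the catalytic subunit of polymerase alpha, stood at 0.85 (adjusted p = 0.0832). Of the delta subunits, POLD3 was at -0.04 (SE 0.33) after deletion and POLD1, the catalytic subunit, at 1.22 with an SE of 0.66. In the annotation, exons of other genes on the same strand overlap the last 500 bases of PRIM1 (NACA and AC117378.1) and POLD1 (AC020909.1). Reads there could be shared. Under siRNA, POLE, the catalytic subunit of polymerase epsilon, was at -0.52 (SE 0.19, adjusted p = 0.133), nearly as low as POLD3, and PRIM1 was highest at 0.05 in the authors' deposited table.

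The clamp and clamp loader genes gave no call in either comparison. PCNA, the ring that holds polymerases on DNA, was at 42.2% of control after deletion with an interval of 21.3% to 83.5%, and the authors' deposited table gives -1.25 (SE 0.50, adjusted p = 0.0700). PCNA has 3 named pseudogene copies, and its SE was large for its count, as given above. RFC1, the large subunit of the clamp loader, was the most precisely measured member under siRNA, at -0.01 (SE 0.07). The other loader subunits ran under siRNA from -0.19 (RFC5) to 0.14 (RFC3), and after deletion from -0.55 (RFC4) to 0.48 (RFC3).

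RPA1, RPA2 and RPA3 encode the complex that coats single-stranded DNA. The first and the second were lower under siRNA by unadjusted p only, at -0.33 (SE 0.12) and -0.31 (SE 0.14), and the authors' deposited table has RPA3 at 0.14 (SE 0.18). After deletion all 3 lay between -0.23 and -0.14, with no call. FEN1, the flap nuclease that trims Okazaki fragments, was at -0.20 and -0.74, and LIG1, the ligase that seals them, at 0.20 and -0.19, under siRNA and after deletion in turn.

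None of the 5 nucleotide supply genes was called in either comparison. Their median log2 fold changes were close, -0.23 under siRNA and -0.22 after deletion. TYMS, thymidylate synthase, was at 87.6% of control under siRNA and 103% after deletion, and RRM2, the small subunit of ribonucleotide reductase, at 84.6% and 104%. Both had unadjusted p-values under 0.05 in the siRNA comparison (0.0403 and 0.0348 in the authors' deposited table). RRM1, the large reductase subunit, stood at 85.3% and 76.7%, TK1, thymidine kinase, at 84.3% and 86.0%, and DUT, which removes dUTP, at 104% and 69.5%. Under siRNA the 95% interval of all 5 lay within 1.5-fold of no change, and after deletion that held for TYMS alone of all members. TYMS, RRM2 and DUT have named pseudogene copies, and TYMS overlaps ENOSF1 at its end.

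CHAF1A and CHAF1B, subunits of the chromatin assembly factor that deposits histones behind the fork, had opposite signs in the comparisons. Under siRNA they were at -0.29 (SE 0.14) and -0.51 (SE 0.20), and after deletion at 0.88 (SE 0.34, adjusted p = 0.0572) and 1.13 (SE 0.63) in the authors' deposited table, none of them called. The transcript end of CHAF1A is overlapped by an exon of UBXN6 on the opposite strand. UHRF1, which guides maintenance methylation of DNA, was at -0.75 (SE 0.47, adjusted p = 0.289) after deletion. TIPIN, the partner of TIMELESS in stabilising forks, fell after deletion from a derived 144 to 57.2 normalised counts per library (39.8% of control, 24.0% to 65.9%). The authors' deposited table gives TIPIN -1.33 (SE 0.37, adjusted p = 0.0066). TIMELESS, whose protein binds TIPIN, was at 0.59 (SE 0.36) there and CLSPN, the checkpoint adaptor, at 0.36 (SE 0.23), neither called. Under siRNA the 3 genes ran from -0.31 (TIMELESS) to -0.07 (TIPIN).

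The difference between the siRNA and deletion effects was then tested for each gene from the deposited fold changes and SEs, which come from separate control libraries. It passed an adjusted p of 0.05 for 10 of 51 members (19.6%, against 13.7% of all 10891 genes tested in both). For 9 members the effect was lower under siRNA (against 6.49% of all genes), and for 1, TIPIN, it was higher. MCM7 was the only member called in both comparisons, lower under siRNA and higher after deletion, and its difference was -1.30 on the log2 scale (SE 0.24, adjusted p = 2.6e-05). The difference was -1.97 for CDT1 (SE 0.43), -1.55 for MCM5, -1.49 for POLD2, -1.45 for MCM10, -1.35 for POLA2, -1.22 for MCM4, -1.17 for CHAF1A, -1.12 for MCM3 and 1.26 for TIPIN (SE 0.41). With the GC trend removed, the differences of CHAF1A (-0.62, adjusted p = 0.275) and POLA2 (-0.87, adjusted p = 0.102) no longer passed. By sign alone, 22 members were lower under siRNA and higher after deletion, and 17 lower in both. Another 5 were higher in both, and 7 higher under siRNA and lower after deletion. The same counts over all genes were not made. Under siRNA 39 of the 51 were below 0 in any case, so opposite movement is not read from these counts. The treatments also differed in delivery, in time and in the control, which cannot be told apart from the target.

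**Figure D3:**
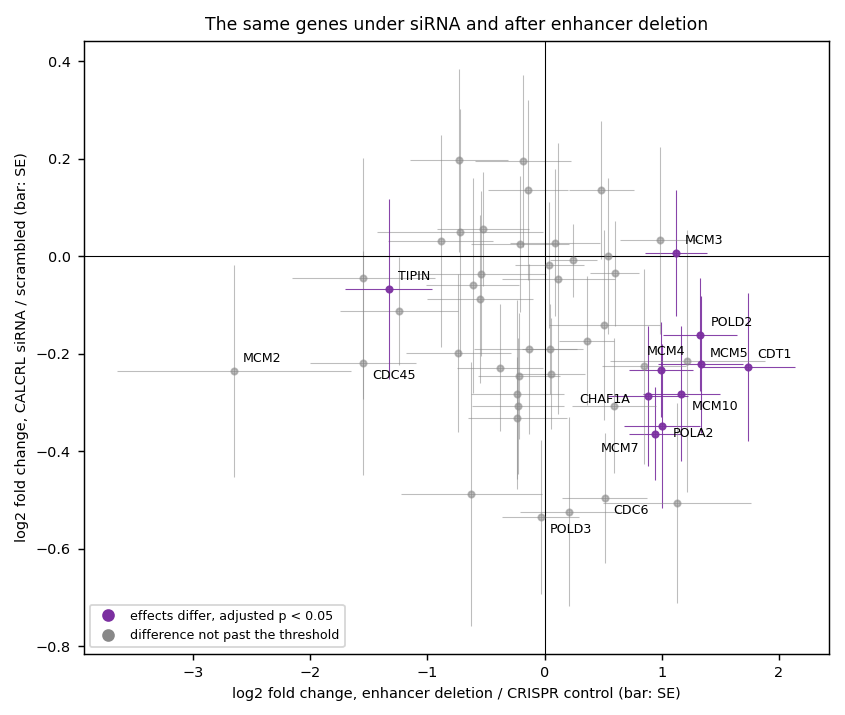
Log2 fold change under siRNA (vertical axis) against that after enhancer deletion (horizontal axis) for the 51 members in both tables, with bars of 1 SE. Purple marks the 10 members whose effects differ: 9 lie to the right at deletion values from 0.88 to 1.74, and TIPIN lies to the left at -1.33. The vertical axis covers a much smaller range than the horizontal one.

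Precision set what each comparison could show. The deletion SEs followed the mean count, as for all genes, so members with few counts such as POLD1 and PRIM1 had wide intervals, and MCM2 stood above the trend. The 5 members with the highest SE for their count under siRNA were MCM2, FEN1, ORC6, ORC5 and CDC45, at 1.32 to 1.55 times the usual SE. All 5 were below 0 after deletion, against 25 of 52 members, a look taken after the values were seen. Of the 5, MCM2 and CDC45 are members already called lower. Across the 51 members, the Spearman correlation of the siRNA SE ratio with the deletion fold change was -0.26. For the deletion SE ratio it was -0.22, and both are descriptions only.

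**Figure D4:**
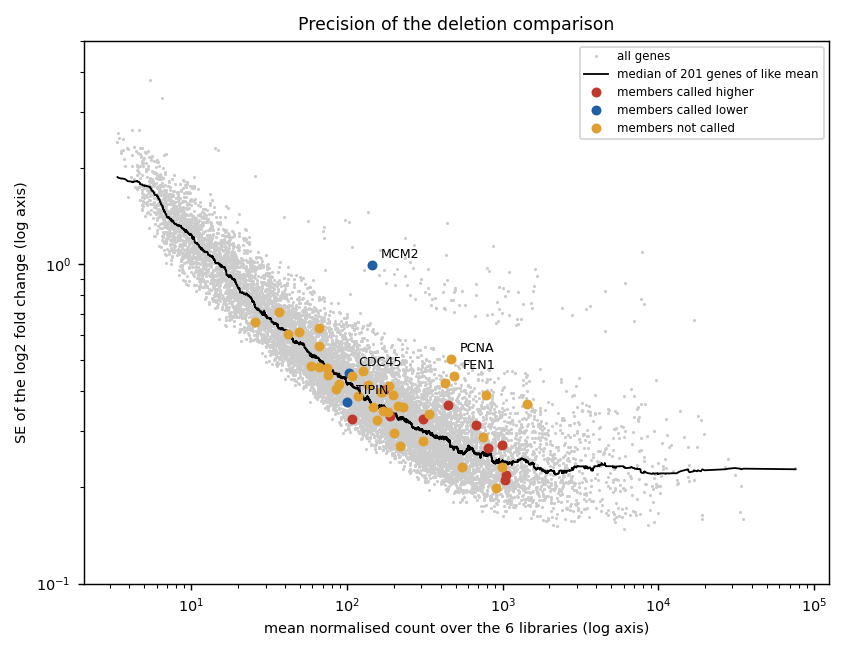
SE of the log2 fold change after deletion against the mean normalised count over 6 libraries (both log axes), with all genes in grey and their running median as a line. Coloured points are members (red called higher, blue called lower, orange not called). MCM2 lies at 2.74 times the running median, and PCNA and FEN1 at 1.86 and 1.70 times.

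Fold changes after deletion moved with the GC content of the transcript end over all genes. The Spearman correlation between the GC content of the last 500 transcript bases and the log2 fold change was 0.31 over all genes and 0.18 over the 51 members with a value, both across genes, which are not replicates. The median fold change of all genes went from -0.26 in the lowest of 10 GC groups to 0.62 in the highest. The 10 members called higher had a median GC content of 46.2%, between 30.8% and 58.8%, the 3 called lower 49.6% and those not called 39.1%, against 41.6% for all genes. With the trend removed, 13 of 51 members were again called after deletion, against 1403 of 11625 genes. Of the 13, 11 were the same: GINS2 and POLA2 were lost, and GINS1 (0.75) and POLA1 (1.04) were gained. MCM10 and MCM4, with GC contents of 30.8% and 33.6%, were higher where the median of all genes was below 0.

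**Figure D5:**
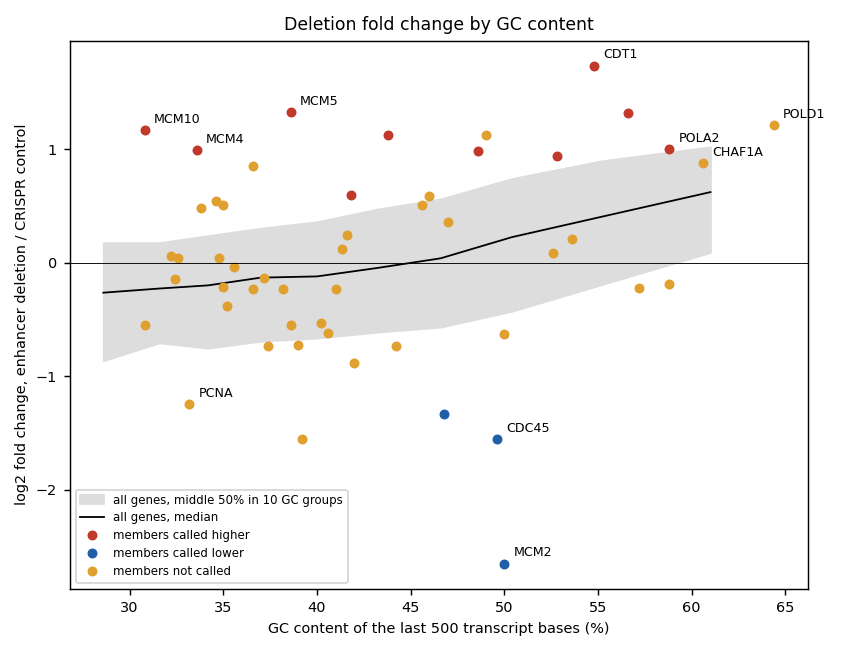
Log2 fold change after deletion against the GC content of the last 500 transcript bases (percent) for the members, over the median (line) and middle 50% (grey band) of all genes in 10 GC groups. The line rises from -0.26 to 0.62. MCM10 and MCM4 lie above the band at low GC content, while MCM2 and CDC45 lie below it near 50%.

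Members with and without an E2F word in the promoter were set side by side as a description. After deletion the median log2 fold change was 0.42 for the 20 members with a word and -0.23 for the 26 without. Under siRNA it was -0.14 (19 members) and -0.18 (26 members). The ranges after deletion overlapped, -2.65 to 1.74 with a word and -1.55 to 1.32 without. A word was present in 5 of 8 members called higher after deletion, in 1 of 3 called lower and in 14 of 35 not called. MCM4 and MCM5, also called higher, are not among these. MCM2, with words at its start site, fell while MCM3, MCM7 and CDT1 rose. Without a word, MCM10, POLD2 and POLE3 rose and CDC45 and TIPIN fell.

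The word GTAACAA in 3' UTRs was looked up because earlier work on the same tables had linked it to genes lower under siRNA, so it is no independent evidence. It was found in 58.3% of 266 genes called lower under siRNA and in 10.3% of 10634 genes with a 3' UTR, but in only 3 of 51 members (5.88%), and in 0 of the 3 members called lower. The sites, from GENCODE release 29 on GRCh38, are shown to locate the word, in capitals, within the members that hold it.

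ORC1 (chr1:52372885-52372914, minus strand): atggaattgttGTAACAAagtatattgaat
ORC4 (chr2:147930570-147930599, minus strand): tattctgagagGTAACAAatgggatatggg
PRIM2 (chr6:57646595-57646624, plus strand): ggaggtttgagGTAACAAcagagactttca

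These 3 genes stood at -0.49, -0.09 and -0.05 under siRNA in the authors' deposited table, and ORC1 was the lowest of the origin recognition genes. None of them was called.

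The G1/S control genes, the cyclins, kinases, pocket proteins and E2F factors that start S phase, were read beside the members. Under siRNA, where 1.05% of all genes were called higher and 2.42% lower, 1 of 25 was called in each direction. In the authors' deposited table these were the cyclin gene CCND3, higher (0.38, SE 0.12), and the phosphatase gene CDC25A, lower (-0.53, SE 0.16). After deletion, where 7.4% of all genes were called higher and 8.44% lower, 0 of 24 were called higher (1 by unadjusted p under 0.05 in the authors' DESeq2 test) and 3 lower: E2F4 (-1.35, SE 0.42), SKP2 (-1.77, SE 0.58), which encodes a ubiquitin ligase subunit acting on CDK inhibitors, and E2F5. The derived level of E2F5 after deletion was under the floor of 3 counts per library, so no fold is given. E2F1, CCNE1 and CCNE2 were called in neither comparison.

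Of the other replication factors, 5 of 36 were called higher after deletion (against 7.4% of all genes) and none lower (against 8.44%, with 2 by unadjusted p under 0.05 in the authors' DESeq2 test). These were CHTF8 (1.31), of the alternative clamp loader, RNASEH2C (1.04), of ribonuclease H2, SSRP1 (1.01), of the FACT histone chaperone, DBF4 (0.87), the activator of the CDC7 kinase, and TOP2A (0.78), topoisomerase II alpha, in the authors' deposited table. Under siRNA, 1 of 37 was called, lower (against 2.42% of all genes). It was DNMT1, the maintenance DNA methyltransferase, at -0.51 (SE 0.12, adjusted p = 0.0016 in the authors' deposited table). Other nucleotide enzymes gave 0 calls of 16 under siRNA (against 3.46% of all genes). By unadjusted p under 0.05 in the authors' DESeq2 test there were 2 (against 12.0%). After deletion, 5 of 16 were called (against 15.8% of all genes). Higher were NME1 (1.02), a nucleoside diphosphate kinase, SAMHD1 (0.69), which breaks down deoxynucleotides, and DCTPP1 (0.55), a dCTP pyrophosphatase. Lower were CMPK1 (-1.53), UMP/CMP kinase, and RRM2B (-0.67), the p53-induced reductase subunit, in the authors' deposited table. Together the 3 lists gave 1 call higher and 2 lower of 78 under siRNA (against 3.46% of all genes in either direction), and 8 higher and 5 lower of 76 after deletion (against 15.8%), counts near those shares. The sum joins lists that did not run alike. Of the other replication factors, 25 of 36 were above 0 after deletion (median 0.35) and 25 of 37 below 0 under siRNA (median -0.06). For the G1/S control genes these were 12 of 24 and 11 of 25, and for other nucleotide enzymes 9 of 16 and 8 of 16. Over all genes, 50.3% were above 0 after deletion and 49.4% below 0 under siRNA.

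The calls rest on the normal reference of the authors' test and few libraries. Against a Student t reference, 0 of 51 members passed under siRNA (6 by unadjusted p), 0 of 52 after deletion (12 by unadjusted p) and 0 of 51 for the difference (19 by unadjusted p), while 5, 0 and 0 genes of the whole tables passed. The statistics were also divided by their robust SD over all genes (1.11 for siRNA and 1.88 for deletion). Of the 3 siRNA calls, 2 were then kept. After deletion 0 members passed (4 by unadjusted p), and for the difference 0 (8 by unadjusted p). In the deletion comparison 0 of 11830 genes passed either check, CALCRL included, so neither check tells members from other genes there. Shares of all genes by unadjusted p were not counted for these settings, so no signal is read from those member counts.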

How the data were processed

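QuantSeq 3' libraries were read single-end for 86 cycles, per the labels' protocols. For each comparison the authors deposited 1 table, laid out as DESeq2 output. Per the file headers it holds, for each gene, a mean normalised count, the log2 ratio of treated to control with its standard error, a score (the Wald statistic), and the raw and adjusted p. The submitters' processing notes name hg19 and edgeR 3.24.3, and the aligner, annotation, filters and use of strand are not given in the sources used here. The tables have no value per library, so the depth of each library is unknown, and outlying or duplicated libraries could not be looked for. Decimal commas were read as points. The statistic equalled fold change over standard error and the adjusted p-value a Benjamini-Hochberg adjustment over the table, to within rounding.

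The members, roles and gene lists were chosen with earlier results of these data known. Named are all members called or differing between comparisons, the extremes of each role, members whose standard error was over 2 times the median of the 201 genes nearest in mean count, and called genes of the lists. Intervals of 95% use the normal quantile and the deposited standard error. Differences between comparisons were referred to the normal distribution and adjusted over 10891 genes (Benjamini-Hochberg), a step tested on simulated data. GC content used the transcript with the longest 3' UTR (GENCODE release 29), and its trend a lowess span of 0.3 (statsmodels 0.14.6). Python 3.11.15, pandas 2.3.3 and scipy 1.17.1 were used. The 7 alternatives were other thresholds, a Student t reference, division by the robust SD of the statistics, the GC trend, median centring and a mean of at least 50 counts.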

Additional observations from a re-analysis of the deposited data

Results flagged for a closer look

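For 10 members, the direct test of the siRNA effect against the deletion effect passed an adjusted p of 0.05, which is what brought them here. The differences, siRNA minus deletion on the log2 scale, were lower under siRNA for 9. They were -1.305 for MCM7 (SE 0.24, adjusted p = 2.6e-05), -1.965 for CDT1 (SE 0.43, adjusted p = 0.00051), -1.485 for POLD2 (SE 0.33, adjusted p = 0.00071) and -1.224 for MCM4 (SE 0.29, adjusted p = 0.0014). For MCM10 the difference was -1.449 (SE 0.36), for MCM5 -1.553 (SE 0.39), for MCM3 -1.116 (SE 0.29), for POLA2 -1.353 (SE 0.37) and for CHAF1A -1.167 (SE 0.37), with adjusted p-values between 0.0023 and 0.0201. TIPIN differed the other way, by 1.261 (SE 0.41, adjusted p = 0.0254). With the GC trend removed, POLA2 (-0.87, adjusted p = 0.102) and CHAF1A (-0.62, adjusted p = 0.275) were lost. CHAF1A was called in neither comparison alone. Delivery, time and control guide or siRNA differ between the comparisons and cannot be told apart from the target.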

How the results depend on the processing

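The 3 calls under siRNA became 0 against a Student t reference, 2 with the statistics divided by their robust SD, and 2 at an adjusted p under 0.01. Over all 11261 genes, 390 calls became 5, 262 and 243 in turn. The 13 calls after deletion became 0 against the t reference and 0 with the robust SD (4 by unadjusted p), where 0 of all genes passed too. They became 9 at 0.01 and 17 at 0.1, while the 1874 calls over all 11830 genes became 786 and 2714. The 10 differences became 0 against the t reference, 0 with the robust SD (8 by unadjusted p), 8 at 0.01, 18 at 0.1, and 14 among genes with a mean of at least 50 counts. Over all 10891 genes, 1493 differences became 0 against the t reference, 539 at 0.01 and 2284 at 0.1. Shares of all genes by unadjusted p were not counted for the robust SD. With the GC trend removed, 11 differed, 8 of them the same: CHAF1A (-0.62, adjusted p = 0.275) and POLA2 (-0.87, adjusted p = 0.102) were lost. Of the 26 calls of single members, 22 held with the GC trend removed, 2 with the robust SD and 0 against the t reference. All 26 held with the median subtracted and above 50 counts, where little could change. The medians were 0.003 for siRNA and 0.005 for deletion, and every called member had a mean above that limit. No direction reversed, but only removing the GC trend or the median alters a fold change. No paired analysis was possible because values of single libraries were not analysed here, and leaving out replicates was not run for the same reason. Few libraries and the deletion SEs, over 2 times those of siRNA at the median, limit what was detectable after deletion.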
